A study of Mus musculus with 22 samples.

Results

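The proteasome is the protease complex that breaks down most short-lived and damaged proteins of the cell after these have been tagged with ubiquitin. Its genes were followed here in the nucleus accumbens, a reward region of the ventral striatum, of mice whose gut microbiome was depleted by antibiotics or left normal and that received morphine or saline. The 38 genes are those of the 24061 in the authors' count table whose symbol begins with Psma, Psmb, Psmc or Psmd and a number, or is one of Psme1 to Psme4. Left out were the immunoproteasome genes Psmb8, Psmb9 and Psmb10, the tissue-restricted Psma8 and Psmb11, Psmc3ip, which encodes a meiotic recombination factor and no subunit, and Psme2b, a copy of Psme2. The symbols cover more than subunits: Psmd5, Psmd9 and Psmd10 encode assembly chaperones and Psme1 to Psme4 encode activators. All 38 passed the filter on low counts, beside 14564 genes in all.

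The mice were conventionally raised male C57BL/6J animals, 7 to 9 weeks old per the labels, and each library holds RNA of bulk tissue. Abx_Morphine (5 libraries) mice had their microbiome depleted by nonabsorbable antibiotics and received 20 mg/kg morphine per day for 7 days. Abx_Saline (6 libraries) mice had antibiotics and saline, H2O_Morphine (5 libraries) mice a normal microbiome and the same morphine course, and H2O_Saline (6 libraries) mice a normal microbiome and saline. The labels do not say that each library came from its own animal, so p-values measure the spread between these libraries, which may be technical. Gene counts ran between 9357299 and 15330947 per library. All 10 striatal projection neuron markers were detected, with a summed level of 2814 to 6370 CPM (CPM are counts scaled to the library's total over the genes tested, corrected by edgeR's TMM factors). Markers of cortical and septal neurons were detected as well, and their sum varied widely. It ran from 81.1 CPM in an H2O_Saline library to 1599 CPM in an Abx_Saline library. In bulk tissue, fewer cells of a type and less RNA per cell cannot be told apart.

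In the assembled 26S proteasome a barrel-shaped core, the 20S particle, is capped by a 19S regulatory particle. The core stacks outer rings of alpha subunits (Psma genes), which gate the entry, on inner rings of beta subunits (Psmb genes), of which Psmb5, Psmb6 and Psmb7 carry the cutting sites. The base of the 19S particle holds a ring of ATPases (Psmc genes) that unfold the substrate, and its lid holds the deubiquitinase Psmd14, which removes the ubiquitin tag. In neurons the proteasome is known for its part in synaptic remodelling. Proteasome genes are known to be regulated together in mammalian cells by the transcription factor Nfe2l1 through antioxidant response elements in their promoters.

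The levels of the 38 genes per length of transcript spread over a 20.2-fold range in H2O_Saline libraries, taking each gene's longest protein-coding transcript. Genes of the beta ring stood highest as a group, with a median of 104 CPM per kb. The ATPase genes had a median of 83.3, the non-ATPase genes of the base (Psmd1, Psmd2, Psmd4) 65.7, the alpha ring 61.3 and the lid 54.0 CPM per kb. The activators had a median of 36.2 CPM per kb and the 3 chaperone genes 12.5. At the top, Psmb6, the caspase-like catalytic subunit, had 140 ± 3.52 CPM per kb (SD, n = 6) and the ATPase gene Psmc5 132 ± 9.04. On this scale the lowest level was that of Psme4, which encodes the activator PA200, at 6.93 ± 0.312 CPM per kb. Next above it stood the chaperone genes Psmd5 at 11.7 ± 0.673, Psmd10 at 12.5 ± 0.777 and Psmd9 at 14.5 ± 0.830 CPM per kb. Neighbours in this order mostly overlapped in their 6 libraries: from Psmb6 through Psmd7, the 14 highest, no neighbours were apart. Psme4 lay below Psmd5 in all 6 libraries, and Psmd5 and Psmd10 overlapped. Of the 38 genes, 37 lay above the median of all genes tested, 8.69 CPM per kb. With each gene's median transcript length in place of the longest, the range became 34.3-fold. The Spearman correlation between the 2 orders was 0.751 across the 38 genes, so single places in the order depend on the transcript chosen. The medians of the sub-complexes hold for the longest transcript only and were not computed for the median length. By the median length the activator genes Psme1, Psme2 and Psme3 stood at 71.9, 38.8 and 154 CPM per kb. Both ends then changed: Psme4 stood at 68.5 CPM per kb, away from the bottom, Psmd10 was lowest at 12.7, and Psmd2 was highest at 434, above Psmb6 at 139.9.

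**Figure D1:**
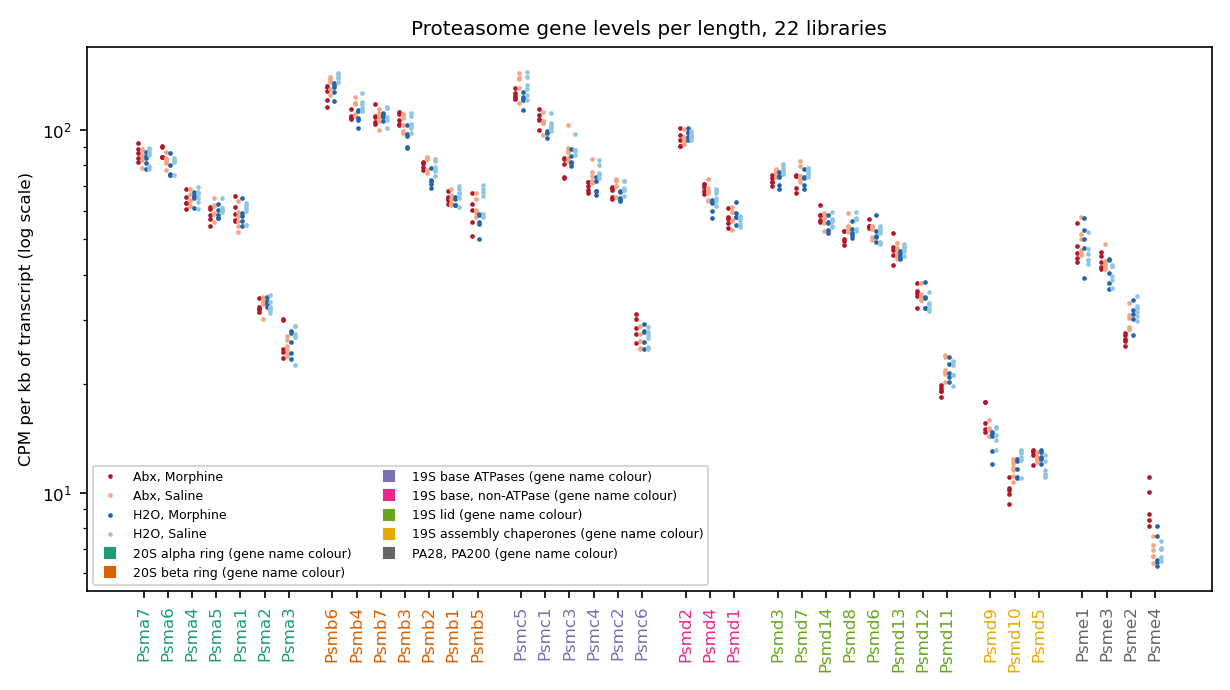
Level per length of the longest transcript (CPM per kb, log axis) of 38 proteasome genes in the 22 libraries. Points are libraries, coloured by group, and the colours of the gene names give the sub-complexes. Beta ring genes fill many of the top places, and the chaperone genes and Psme4 the bottom (Psme4 mean 6.93 CPM per kb in H2O_Saline). By the median transcript length, which is not drawn, Psme4 stands at 68.5 CPM per kb in H2O_Saline.

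The changes with treatment were small. Over the 4 comparisons between 2 groups, the genes' fold changes ran between 0.859 for Psmb5 and 1.34 for Psme4. The summed level of the 38 genes was 3735 ± 103 CPM in Abx_Morphine (SD, n = 5), 3787 ± 104 in Abx_Saline (n = 6), 3665 ± 62.6 in H2O_Morphine (n = 5) and 3792 ± 82.8 in H2O_Saline (n = 6). These sums overlapped between all 4 groups.

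Morphine in antibiotic-treated mice was compared first, Abx_Morphine against Abx_Saline. The activator gene Psme4 rose 1.34-fold, and 3 genes of the 19S particle or its assembly fell, Psmd11 to 0.869, Psmc3 to 0.89 and Psmd10 to 0.874 of the Abx_Saline level. By edgeR's quasi-likelihood test with Benjamini-Hochberg adjusted p under 0.05, 1 of the 38 genes was higher (2.63%, against 6.43% of all genes tested) and 3 were lower (7.89%, against 6.62%). Their median log2 change was -0.0057, against -0.0024 for all genes tested, with 18 above and 20 below zero. None of the 7 alpha ring and none of the 7 beta ring genes passed. At an unadjusted p under 0.05, 1 gene was higher (against 1974 of all 14564 genes tested) and 9 were lower (against 2047). Of these 9, 2 were beta ring genes.

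Psme4 stood at 71.7, 52.6, 54.6, 56.8 and 65.1 CPM in the Abx_Morphine libraries, against 41.7 to 49.4 CPM (median 44.4) in the Abx_Saline libraries. Every Abx_Morphine library lay above every Abx_Saline library. The log2 change was 0.42 ± 0.0762 (SE), 1.34-fold, with an edgeR adjusted p of 0.00118. PA200 caps the 20S core without ATP and is known in mouse testis for the breakdown of acetylated histones. Psmd11 encodes the lid subunit Rpn6, which clamps the lid to the core. It had 56.4, 55.4, 54.5, 52.4 and 54.3 CPM in Abx_Morphine, against 57.6 to 68.2 CPM (median 61.8) in Abx_Saline. The groups did not overlap, all Abx_Morphine libraries being lower. Its log2 change was -0.20 ± 0.0529 (edgeR adjusted p = 0.0145). Of all genes tested, 3.14% lay wholly above and 3.17% wholly below in this way.

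Psmc3, an ATPase of the base, had 152, 151, 135, 147 and 135 CPM in Abx_Morphine, against 149.7 to 188 CPM (median 159) in Abx_Saline. The groups overlapped, and all 5 Abx_Morphine libraries lay below the Abx_Saline mean. The log2 change was -0.17 ± 0.0538 (edgeR adjusted p = 0.0403), and 8.25% of the gene's exon bases in GENCODE overlap Slc39a13 on the other strand. Psmd10 encodes gankyrin, the chaperone that holds the ATPase Psmc4 during assembly of the base. It had 14.6, 14.7, 14.2, 13.4 and 15.8 CPM in Abx_Morphine, against 15.4 to 17.7 CPM (median 16.7) in Abx_Saline, with 1 Abx_Morphine library inside the Abx_Saline range. Its log2 change was -0.19 ± 0.0646 (edgeR adjusted p = 0.0485). A further activator gene, Psme2, one of the PA28 pair, averaged 25.6 ± 0.870 CPM in Abx_Morphine (SD, n = 5) and 28.8 ± 1.90 in Abx_Saline (n = 6). The Psme2 groups did not overlap, but its log2 change of -0.17 ± 0.0606 did not pass (edgeR adjusted p = 0.0618). Its partner Psme1 averaged 52.7 ± 5.36 CPM in Abx_Morphine and 55.1 ± 5.19 in Abx_Saline, within the spread (adjusted p = 0.675).

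Psme4 and Psmd11 held when any single library was left out. Psmc3 did not pass without Abx_Morphine 3 (adjusted p = 0.119), 4 (0.0587) or 5 (0.0979), or without Abx_Saline 1 (0.0761) or 5 (0.097), and Psmd10 passed only without Abx_Morphine 5 or Abx_Saline 5 (otherwise 0.0513 to 0.124). The number of genes called was 2 without Abx_Morphine 3, Abx_Morphine 4 or Abx_Saline 1, and 1 (Psme4) without Abx_Saline 6 and Abx_Morphine 4, the libraries with the most Malat1. The libraries also differed in how level followed transcript length. The slope of centred log2 CPM on log2 length was 0.0435 ± 0.0112 in Abx_Morphine (SD, n = 5) and -0.0178 ± 0.0365 in Abx_Saline (n = 6). With that slope as a covariate none of the 38 genes passed by edgeR (6 at an unadjusted p under 0.05): Psme4 then had a log2 change of 0.37 (adjusted p = 0.1) and Psmd11 one of -0.28 (adjusted p = 0.0545). Of the Abx_Saline libraries only Abx_Saline 6, at 0.0483, lay within the Abx_Morphine range of slopes (0.0257 to 0.0545). Slope and morphine are thus largely confounded in that fit.

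**Figure D2:**
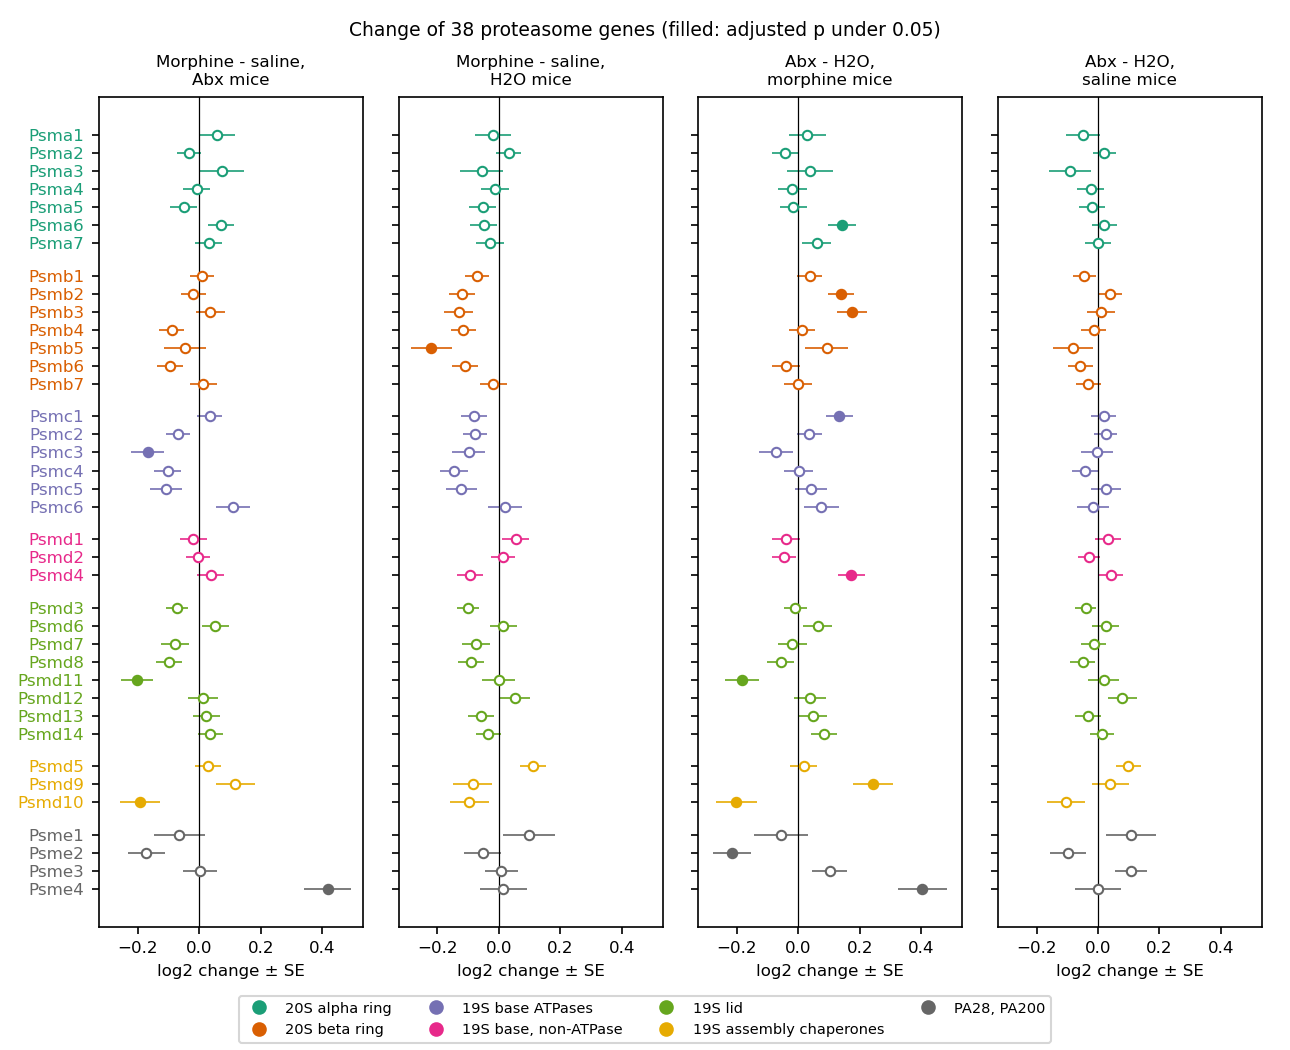
Log2 change of each proteasome gene in 4 comparisons, with SE bars, by edgeR; filled points had an adjusted p under 0.05 and colours give the sub-complex. Psme4 stands apart in both comparisons that involve Abx_Morphine (0.42 and 0.40), and no gene is filled for antibiotics under saline.

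In mice with a normal microbiome, H2O_Morphine was set against H2O_Saline, and 1 gene, Psmb5 of the beta ring, fell. It encodes the chymotrypsin-like site of the core, the target of the proteasome inhibitor bortezomib. By edgeR, 0 of the 38 genes were higher (0%, against 3.91% of all genes tested) and 1 was lower (2.63%, against 2.67%), so that 2.63% were called in either direction, against 6.58%. No gene's H2O_Morphine libraries lay wholly above those of H2O_Saline (against 3.1% of all genes) and 2 genes' lay wholly below (5.26%, against 2.73%). At an unadjusted p under 0.05, 1 gene was higher (against 1721 of all 14564 genes tested) and 10 were lower (against 1587), 5 of the 10 from the beta ring. DESeq2 and limma-voom called 0 higher as well, with 3 and 1 lower. Of the 38 log2 changes 28 were below zero, with a median of -0.055, beside 7293 of 14564 below zero and a median of -0.00017 for all genes. All 7 beta ring genes lay below zero (median -0.12), as did 5 of 6 ATPase genes (median -0.089). Markers of several cell types were below zero in the same comparison, 10 of 10 each for striatal projection neurons (median -0.23, 0 called lower), oligodendrocytes (-0.20, 2), microglia (-0.23, 4) and endothelium (-0.18, 3). Their summed levels were 3341 to 5470 CPM in H2O_Morphine and 4665 to 6370 in H2O_Saline for striatal markers. Oligodendrocyte markers summed to 5225 to 6136 CPM in H2O_Morphine and 6144 to 7089 in H2O_Saline. Microglial markers summed to 558 to 624.6 CPM in H2O_Morphine and 654 to 699.6 in H2O_Saline, and endothelial ones to 288 to 321 CPM in H2O_Morphine and 328 to 359 in H2O_Saline. For cortical and septal neuron markers the direction depended on the measure. By edgeR 9 of 10 lay above zero (median 0.24, 0 called). Their sums averaged 379 CPM in H2O_Morphine (92.5 to 1279) and 405 CPM in H2O_Saline (81.1 to 769). Their mean centred log2 CPM was -0.73 ± 1.48 in H2O_Morphine (SD, n = 5) and -0.22 ± 0.941 in H2O_Saline (n = 6). H2O_Morphine 4 stood at 1.57, the others of its group between -2.31 and -0.42. Astrocyte markers were even, 5 above and 5 below zero (median 0.025, 0 called). The part of all these markers in the proteasome genes' changes was not tested.

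Psmb5 had 45.0, 52.5, 52.8, 50.2 and 49.6 CPM in H2O_Morphine, against 51.9 to 63.4 CPM (median 60.0) in H2O_Saline. The groups overlapped, with all 5 H2O_Morphine libraries below the H2O_Saline mean. Its log2 change was -0.22 ± 0.0672, 0.859-fold (edgeR adjusted p = 0.0491), and 12.1% of its exon bases overlap the microRNA gene Mir686 on the same strand. Psmb6, the caspase-like site, had 108, 105, 96.0, 106 and 102 CPM in H2O_Morphine, against 108 to 115 CPM (median 112) in H2O_Saline. Every H2O_Morphine library lay below every H2O_Saline library, but the log2 change of -0.11 ± 0.0427 did not pass (adjusted p = 0.115). Psmb7, the trypsin-like site, had 123, 129, 127, 126 and 127 CPM in H2O_Morphine, against 118 to 135 CPM (median 129.8) in H2O_Saline. Its groups overlapped throughout, at a log2 change of -0.018 ± 0.0437, and 11.8% of its exon bases overlap Nek6 on the other strand. The structural beta subunit gene Psmb2 had 61, 62.8, 59.6, 62.2 and 67.6 CPM in H2O_Morphine, against 64.4 to 71.4 CPM (median 67.7) in H2O_Saline. The ranges overlapped through 1 H2O_Morphine library (log2 change -0.12 ± 0.0416, adjusted p = 0.085).

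The ATPase gene Psmc4 had 95.5, 107, 105, 97.8 and 98.1 CPM in H2O_Morphine, against 106 to 119.6 CPM (median 109) in H2O_Saline. Its log2 change of -0.15 ± 0.0450 stopped just short of the threshold (edgeR adjusted p = 0.0506), with 1 H2O_Morphine library inside the H2O_Saline range. Psmd3, a scaffold subunit of the lid, had 161, 165, 152, 148 and 159.6 CPM in H2O_Morphine, against 163 to 174 CPM (median 168) in H2O_Saline. There too the ranges overlapped through 1 library, at a log2 change of -0.10 ± 0.0358 (adjusted p = 0.0884). Psme4 did not follow: it had 40.7, 41.7, 52.6, 42.3 and 49.5 CPM in H2O_Morphine, against 42.2 to 47.9 CPM (median 45.4) in H2O_Saline, overlapping.

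Psmb5 did not pass without H2O_Morphine 2 (adjusted p = 0.149), 3 (0.0557), 5 (0.0803) or 6 (0.0921), or without H2O_Saline 3 (0.0925), 4 (0.0812), 8 (0.109) or 9 (0.0947), and leaving out 1 of the 11 libraries at a time the count of genes called ran between 0 and 2. The length slope was 0.0391 ± 0.00743 in H2O_Morphine (SD, n = 5) and -0.0510 ± 0.0266 in H2O_Saline (n = 6). With it as a covariate Psmb5 stood at -0.05 (edgeR adjusted p = 0.951) and no gene passed (2 at an unadjusted p under 0.05). The slopes of these groups did not overlap (0.0287 to 0.0476 in H2O_Morphine, -0.0784 to -0.0119 in H2O_Saline). Slope and morphine are thus confounded, and this fit cannot tell them apart. Proteasome transcripts are short: their longest protein-coding transcripts had a median of 1586 nt, against 3266.5 nt over the genes tested that have a length in GENCODE. Beta ring transcripts ran between 766 and 1970 nt. Among all genes, the median log2 change under morphine in these mice was -0.12 in the bin of shortest transcripts, centred at 861 nt, and 0.22 in that of the longest, at 10208 nt. Across the 38 genes, log2 change and log2 length had a Pearson r of 0.511 (0.505 without Psme4), against 0.387 across 13370 genes, which share their libraries and are not independent. In antibiotic-treated mice the same r was 0.408 across the 38 genes, but 0.147 without Psme4, whose transcript of 6491 nt is the longest of them, and 0.249 across all genes. Under the length covariate the median log2 change of the 38 genes was 0.013 for morphine in mice with a normal microbiome and 0.041 in antibiotic-treated mice.

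**Figure D3:**
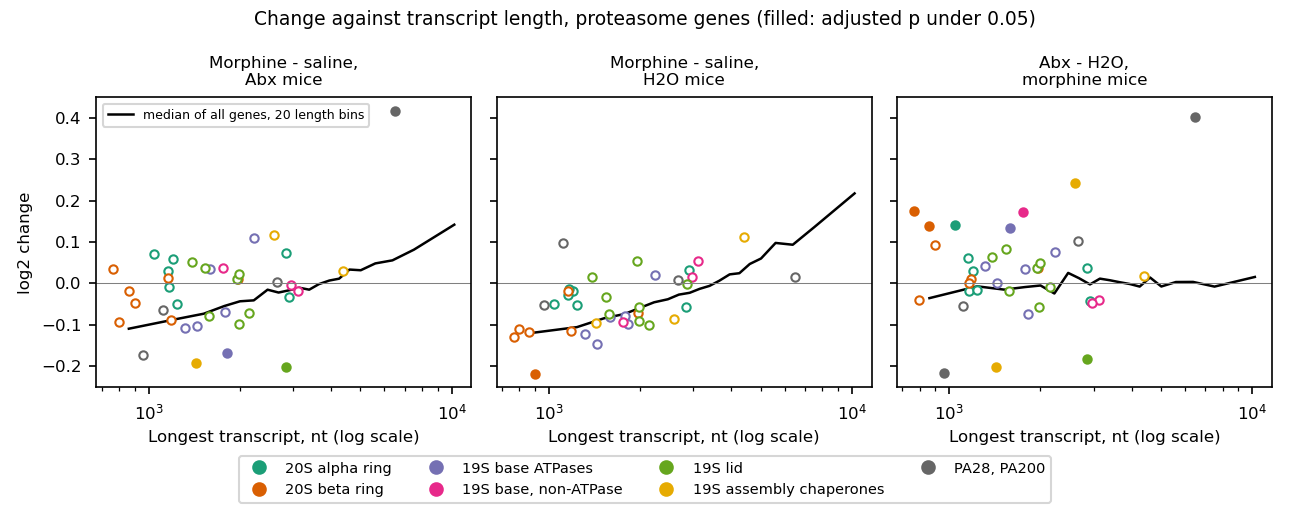
Log2 change of each proteasome gene against the length of its longest protein-coding transcript (nt, log axis) in 3 comparisons; filled points had an adjusted p under 0.05, colours give the sub-complex and the line the median of all genes in 20 length bins. The line climbs with length in both morphine comparisons and lies near 0 for antibiotics under morphine, where 10 genes are filled.

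Whether the morphine change itself differed with the microbiome was tested by the interaction. None of the 38 genes passed by edgeR (0%, against 0.467% of all genes tested), nor by DESeq2 or limma-voom. At an unadjusted p under 0.05, 4 were higher (against 796 of all 14564 genes tested) and 1 was lower (against 995). Psme4 came nearest, with a difference in log2 change of 0.40 ± 0.108 (unadjusted p = 0.00108, edgeR adjusted p = 0.102), and it passed without H2O_Morphine 4 (adjusted p = 0.0433). Then came Psmd11 at -0.20 ± 0.0745 (adjusted p = 0.241), Psmb3 at 0.16 ± 0.0667 (0.299), Psmd9 at 0.20 ± 0.0891 (0.349) and Psmd4 at 0.13 ± 0.0603 (0.369).

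Under morphine, antibiotic-treated mice were compared with mice of normal microbiome, Abx_Morphine against H2O_Morphine, and here more proteasome genes were called than in the other comparisons. Higher were Psma6 of the alpha ring, Psmb2 and Psmb3 of the beta ring, Psmc1 and Psmd4 of the base, the chaperone gene Psmd9 and the activator gene Psme4. Lower were Psmd11 of the lid, the chaperone gene Psmd10 and the activator gene Psme2. By edgeR, 7 of 38 were higher (18.4%, against 8.42% of all genes tested) and 3 were lower (7.89%, against 9.58%). In either direction 26.3% passed, against 18% of all genes. The libraries were wholly apart for 4 genes above (10.5%, against 6.26%) and 1 below (2.63%, against 6.82%), and the median log2 change was 0.032, against 0.00084 for all genes. These libraries are those of the morphine groups above, so a gene such as Psme4 enters both comparisons with the same Abx_Morphine values.

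Psmb3, a structural beta subunit, had 81.9, 84.7, 86.3, 79.4 and 79.9 CPM in Abx_Morphine, against 68.4, 73.9, 69.1, 74.6 and 79.3 CPM in H2O_Morphine. All Abx_Morphine libraries were above all H2O_Morphine libraries, the closest pair by less than 1 CPM. The log2 change was 0.17 ± 0.0491, 1.13-fold (edgeR adjusted p = 0.016). Psmb2 had 69.9, 66.7, 69.8, 70.3 and 68.2 CPM in Abx_Morphine, against the H2O_Morphine values given above, overlapping through 1 library (0.14 ± 0.0432, adjusted p = 0.0274). The catalytic genes did not pass. Psmb5 had 56.2, 54.3, 46.0, 60.4 and 50.4 CPM in Abx_Morphine, a log2 change of 0.09 ± 0.0699 against H2O_Morphine (adjusted p = 0.396). Psmb6 had 106, 105, 92.8, 102 and 96.6 CPM there and Psmb7 137, 122, 126, 121 and 127, both overlapping H2O_Morphine, with log2 changes of -0.04 ± 0.0445 and -0.00036 ± 0.0455.

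Psma6, an alpha ring subunit, averaged 90.4 ± 3.23 CPM in Abx_Morphine and 81.9 ± 5.04 in H2O_Morphine (SD, n = 5 each), a log2 change of 0.14 ± 0.0450 (edgeR adjusted p = 0.0303). The ATPase gene Psmc1 averaged 171 ± 8.39 CPM in Abx_Morphine and 156 ± 2.95 in H2O_Morphine, with the groups apart by under 1 CPM (0.13 ± 0.0433, adjusted p = 0.0353). Psmd4 encodes Rpn10, a ubiquitin receptor of the 19S particle. It had 125, 119, 122, 125 and 118 CPM in Abx_Morphine, against 111, 110.4, 105, 101 and 113 CPM in H2O_Morphine. The groups were apart, at a log2 change of 0.17 ± 0.0444, 1.13-fold (edgeR adjusted p = 0.00865). Psmd11 had its Abx_Morphine values below the H2O_Morphine ones of 64.7, 61, 59.3, 57.6 and 67.4 CPM without overlap (-0.18 ± 0.0548, adjusted p = 0.0227).

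The chaperones of the base went in both directions. Psmd9, a PDZ-domain protein that binds ATPases before the base is complete, had 40.4, 39.1, 46.4, 46.2 and 38.3 CPM in Abx_Morphine, against 37.7, 38.2, 31.1, 37.2 and 33.8 CPM in H2O_Morphine. The groups were apart by a margin of under 1 CPM, at a log2 change of 0.24 ± 0.0654, 1.18-fold (edgeR adjusted p = 0.0117). A lincRNA gene on the other strand, Gm26745, covers 25.5% of its exon bases, and whether counting used strand is not given in the sources used here. Psmd10 had 15.8, 16.6, 17.8, 15.8 and 17.6 CPM in H2O_Morphine, with 1 Abx_Morphine library level with the lowest of them (-0.20 ± 0.0667, adjusted p = 0.0377). The third chaperone gene, Psmd5, had 56.1, 52.4, 57.8, 57.0 and 57.3 CPM in Abx_Morphine, against 57.6, 55.2, 52.9, 54.7 and 57.1 CPM in H2O_Morphine, overlapping (adjusted p = 0.833).

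Among the activators, Psme4 was higher in Abx_Morphine by a log2 change of 0.40 ± 0.0792, 1.32-fold (edgeR adjusted p = 0.00106). One pair of values, 52.6 CPM in Abx_Morphine 2 and 52.6 CPM in H2O_Morphine 4, met. Psme2 averaged 25.6 ± 0.870 CPM in Abx_Morphine and 29.7 ± 2.44 in H2O_Morphine (SD, n = 5 each), a log2 change of -0.22 ± 0.0626 (adjusted p = 0.0186). Psme1 averaged 52.7 ± 5.36 CPM in Abx_Morphine and 54.9 ± 7.58 in H2O_Morphine, and Psme3, which encodes the nuclear activator PA28 gamma, 116 ± 5.49 CPM in Abx_Morphine and 108 ± 9.20 in H2O_Morphine. Neither passed (adjusted p = 0.715 and 0.229). Microglial markers, 9 of 10 of which were called lower here, summed to 419 to 494 CPM in Abx_Morphine and 558 to 624.6 CPM in H2O_Morphine, and their part in the Psme2 result was not tested. Called lower as well were 4 of 10 oligodendrocyte, 3 of 10 endothelial and 3 of 10 astrocyte markers, with 1 astrocyte marker higher. Of the cortical and septal neuron markers 9 of 10 lay above zero (median 0.44, 0 called). Their sums overlapped, at 258 to 1077 CPM in Abx_Morphine and 92.5 to 1279 CPM in H2O_Morphine. The part of all these markers in the proteasome genes' changes was not tested here either.

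Psmd4, Psmd9 and Psme4 passed in this comparison under every alternative run and without any single library (highest adjusted p 0.0435, 0.0443 and 0.0161). Psmb3 did not pass without H2O_Morphine 2 (0.0519), Psme2 without H2O_Morphine 5 (0.0602), and Psmd11 without Abx_Morphine 4 (0.0596), H2O_Morphine 2 (0.0549) or H2O_Morphine 6 (0.0748). Psma6 was lost without Abx_Morphine 1 or 5 or H2O_Morphine 2, 3 or 5 (0.0719 to 0.0887) and Psmb2 without Abx_Morphine 1, 3 or 4 or H2O_Morphine 2, 4 or 5 (0.0508 to 0.0675). Psmc1 was lost without any of these libraries but Abx_Morphine 5 (0.05 to 0.106), and Psmd10 without Abx_Morphine 1 to 4 or H2O_Morphine 3, 4 or 6 (0.0523 to 0.1). The count of 10 became 6 without Abx_Morphine 1, Abx_Morphine 4 or H2O_Morphine 5 and 5 without H2O_Morphine 2. The length slopes of Abx_Morphine and H2O_Morphine libraries overlapped, and with the slope as covariate all 10 genes passed.

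**Figure D4:**
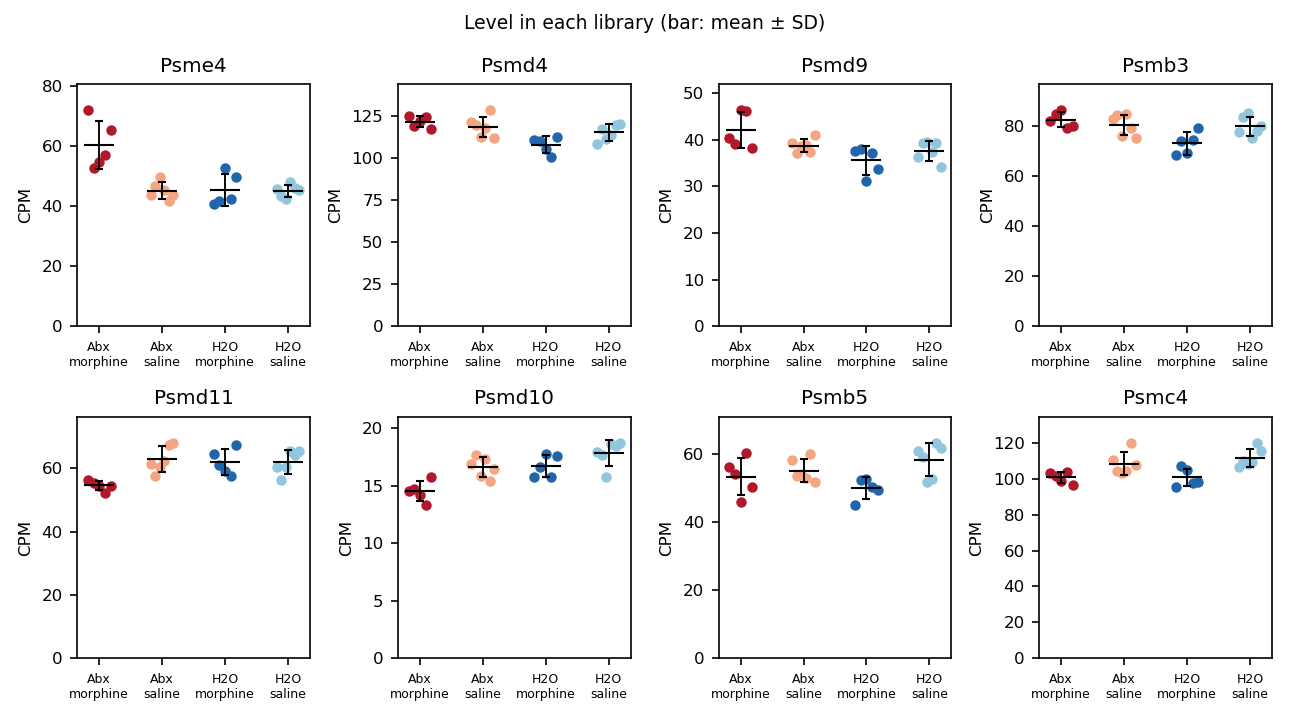
CPM in each of the 22 libraries for proteasome genes of the comparisons above. Points are libraries, and bars the group means ± SD. Psme4 in Abx_Morphine lies between 52.6 and 71.7 CPM, and the other 3 groups between 40.7 and 52.6 CPM.

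Promoter sequence is shown for the genes whose calls or roles the comparisons turned on: Psmb3, Psmd4 and Psmd9, whose groups were apart, Psme4, with the largest change, and the catalytic gene Psmb5. RefSeq promoters (build GRCm38.p6) were matched for 32 of the 38 genes, and each run is the 250 bases before the transcript start, 5' to 3' on the gene's strand. They lie at chr11:97703184-97703433 (Psmb3, plus strand), chr14:54617996-54618245 (Psmb5, minus), chr3:95042615-95042864 (Psmd4, minus), chr5:123227940-123228189 (Psmd9, plus) and chr11:30771525-30771774 (Psme4, plus). Capitals mark either the antioxidant response element core TGACNNNGC or the CCAAT box, searched on both strands, so that ATTGG is a CCAAT on the other strand.
Psmb3: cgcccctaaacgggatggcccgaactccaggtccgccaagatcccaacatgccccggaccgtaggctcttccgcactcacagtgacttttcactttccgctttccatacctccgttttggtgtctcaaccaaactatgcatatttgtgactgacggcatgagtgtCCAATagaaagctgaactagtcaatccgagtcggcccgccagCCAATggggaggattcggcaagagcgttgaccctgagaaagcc
Psmb5: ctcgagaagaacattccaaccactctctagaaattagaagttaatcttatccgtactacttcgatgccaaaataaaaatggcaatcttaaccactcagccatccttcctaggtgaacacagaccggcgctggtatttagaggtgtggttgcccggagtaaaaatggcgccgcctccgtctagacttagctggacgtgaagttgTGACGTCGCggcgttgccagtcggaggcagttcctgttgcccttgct
Psmd4: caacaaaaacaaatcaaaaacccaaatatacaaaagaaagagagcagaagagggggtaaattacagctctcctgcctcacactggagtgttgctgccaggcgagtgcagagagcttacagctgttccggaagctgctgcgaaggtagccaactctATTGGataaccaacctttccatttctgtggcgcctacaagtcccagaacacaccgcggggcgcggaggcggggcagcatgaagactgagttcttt
Psmd9: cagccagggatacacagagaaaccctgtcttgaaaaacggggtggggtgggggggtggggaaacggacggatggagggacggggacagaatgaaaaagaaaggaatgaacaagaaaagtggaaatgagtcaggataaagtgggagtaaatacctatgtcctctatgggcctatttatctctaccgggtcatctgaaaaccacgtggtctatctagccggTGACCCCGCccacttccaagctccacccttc
Psme4: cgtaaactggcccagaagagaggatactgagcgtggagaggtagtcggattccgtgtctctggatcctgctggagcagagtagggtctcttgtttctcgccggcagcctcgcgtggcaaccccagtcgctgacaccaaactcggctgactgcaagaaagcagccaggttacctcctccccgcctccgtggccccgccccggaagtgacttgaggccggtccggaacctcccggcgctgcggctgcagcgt

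The element TGACNNNGC, which Nfe2l1 with a small Maf partner binds, was present in 5 of the 35 promoters of proteasome genes (14.3%), against 10.2% of 32851 promoters. Those were the promoters of Psmb5, Psmb6, Psmd9, Psmd12 and Psmc6. It began 47 bases before the start in Psmb5, 31 in Psmd9 and 9 in Psmb6. CCAAT, the site of the factor NF-Y, was present in 12 of the 35 (34.3%), against 33.8% of all. Carriers included genes called for antibiotics under morphine (Psmb3, Psmc1, Psmd4, Psmd10 and 1 of the 2 Psma6 promoters) and genes with no call (Psma1, Psma2, Psma3, Psma7, Psmc2, Psmd14 and Psme3). It was not in the windows of the called genes Psmd9, Psmd11, Psme2 and Psme4, and Psme4 held neither motif. These are matches of letters in 250 bases and say nothing of binding.

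Antibiotics under saline, Abx_Saline against H2O_Saline, gave no call. By edgeR, 0 of 38 genes were higher (0%, against 0.542% of all genes tested) and 0 were lower (0%, against 0.865%), or 1.41% of all genes in either direction, and DESeq2 and limma-voom called 0 as well. At an unadjusted p under 0.05 edgeR had 1 gene higher (against 1256 of all 14564 genes tested) and 0 lower (against 1257). No gene's libraries were wholly apart, against 0.632% of all genes above and 1.01% below. The changes were even, 19 above and 19 below zero, with a range of -0.10 to 0.11 on the log2 scale. The chaperone gene Psmd5 had the smallest p: it ran between 53.5 and 57.1 CPM (median 55.0) in Abx_Saline and between 48.7 and 56.1 CPM (median 50.2) in H2O_Saline. These ranges overlapped, at 0.10 ± 0.0416 (edgeR adjusted p = 0.218). Psme3 ran between 111 and 129 CPM (median 114) in Abx_Saline and between 98.1 and 114 CPM (median 109) in H2O_Saline, overlapping (0.11 ± 0.0525, adjusted p = 0.295). Psmd10 ran between 15.4 and 17.7 CPM (median 16.7) in Abx_Saline and between 15.7 and 18.7 CPM (median 18.2) in H2O_Saline (-0.10 ± 0.0613, adjusted p = 0.393). The lid gene Psmd12 ran between 66.4 and 73.9 CPM (median 67.9) in Abx_Saline and between 61.9 and 69.9 CPM (median 64.7) in H2O_Saline (0.08 ± 0.0472, adjusted p = 0.397). Psme4 averaged 45.0 ± 2.76 CPM in Abx_Saline and 45.0 ± 2.02 in H2O_Saline (SD, n = 6 each).

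Within groups most pairs of proteasome genes varied together to a modest degree. Correlations were not computed for other genes, so whether this is particular to proteasome genes is not known. After group means were removed, the 703 pairs of genes had a median Pearson r of 0.212 across 22 libraries, with 517 above zero, a description since the pairs share libraries and depth. The median was 0.423 within the ATPase ring, 0.355 within the alpha ring, 0.304 within the beta ring, 0.19 within the lid and -0.224 among the activators. The closest pairs were the ATPase genes Psmc3 and Psmc4 (0.869), Psmc3 and the base scaffold Psmd2 (0.8), and Psma3 and Psmd10 (0.756). After them came Psmc4 with Psmd2 (0.728), Psmb5 with Psmd2 (0.725), Psmc6 with Psmd12 (0.724) and Psmb2 with Psmb3 (0.721). Psmc3, Psmc4 and Psmd2 each stood highest of their group in Abx_Saline 5 (188, 120 and 299 CPM) and in H2O_Saline 8 (177, 119.6 and 296 CPM). The correlations without these libraries were not computed. Psmd9 had a median r with the other genes of -0.0982, near zero and the lowest of the 38 medians. Its single values ran both ways: -0.617 with its fellow chaperone Psmd10, -0.595 with Psma3 and -0.568 with Psme4, but 0.526 with Psme1, 0.319 with Psme2 and 0.312 with Psma7.

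**Figure D5:**
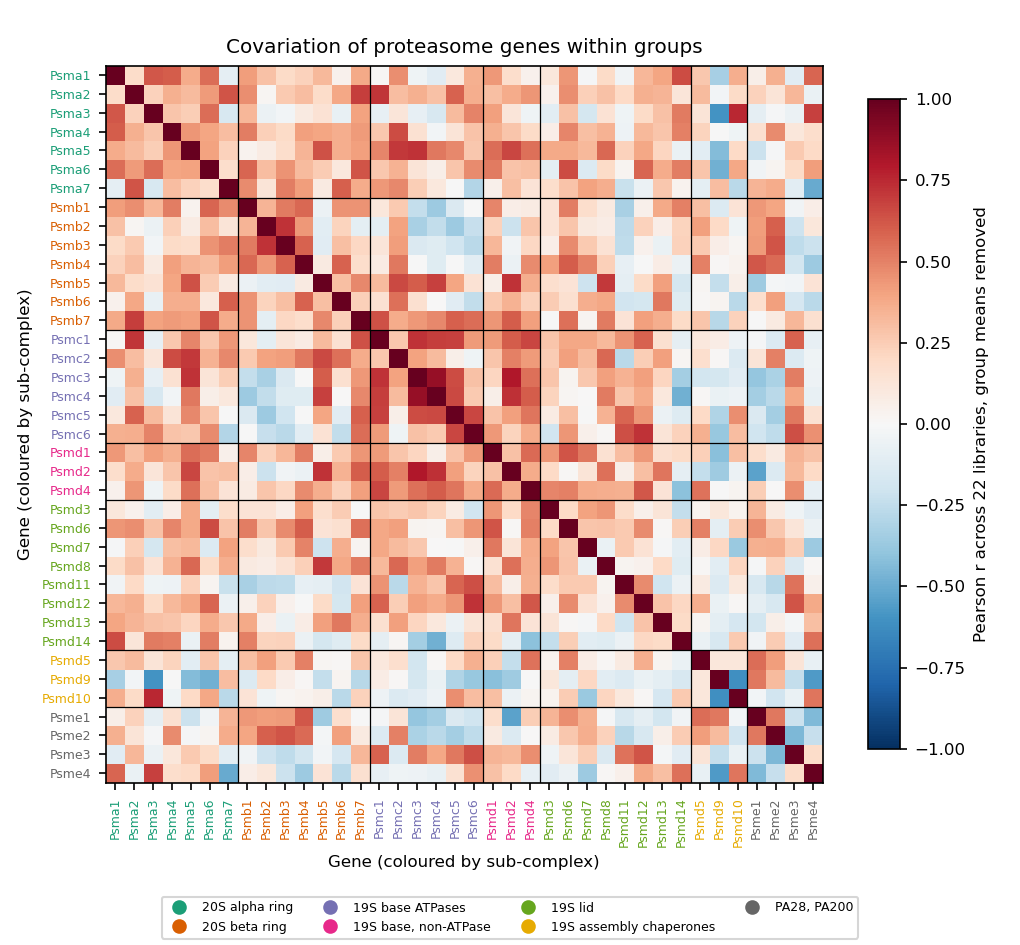
Pearson r of log2 CPM between each pair of proteasome genes across 22 libraries with group means removed, ordered and coloured by sub-complex. The ATPase block is mostly red (median 0.423), and the Psmd9 row holds the most negative value, -0.617.

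Genes around the proteasome were followed through 4 lists. Of 7 measured assembly factors and inhibitors, 1 was higher and 2 were lower under morphine in antibiotic-treated mice (against 6.43% and 6.62% of all genes tested). Ecpas (listed as AI314180), a scaffold that tethers core and cap, averaged 129 ± 10.1 CPM in Abx_Morphine and 110.4 ± 8.6 in Abx_Saline (0.22 ± 0.0555, edgeR adjusted p = 0.0109). Pomp, the maturation factor of the core, averaged 77.2 ± 4.07 CPM in Abx_Morphine and 88.9 ± 6.35 in Abx_Saline (-0.20 ± 0.0533, adjusted p = 0.015), and Psmg2, a chaperone of the alpha ring, fell by 0.24 (0.0317). In Abx_Morphine against H2O_Morphine, Pomp (-0.18) and Psmg2 (-0.22) were lower too, with those same Abx_Morphine libraries, and the proteasome inhibitor gene Psmf1 was higher (0.27 ± 0.0701, adjusted p = 0.0104). For antibiotics under morphine, 8.42% of all genes tested were higher and 9.58% lower. None of the 7 passed in the remaining 2 comparisons of groups.

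Among 13 receptors, deubiquitinases and ligases that sit on the proteasome, the ligase gene Ube3a rose under morphine both in antibiotic-treated mice (44.5 ± 4.42 CPM in Abx_Morphine, 32.3 ± 3.36 in Abx_Saline, log2 change 0.46, edgeR adjusted p = 0.00176) and in mice with a normal microbiome (42.1 ± 4.59 CPM in H2O_Morphine, 32.7 ± 3.81 in H2O_Saline, 0.36, adjusted p = 0.0168). Under morphine, Adrm1, the ubiquitin receptor of the cap, and its partner deubiquitinase Uchl5 were higher with antibiotics (0.22 and 0.37), and Ube3c was lower (-0.13). Of the 13, 1 was called higher and 1 lower for morphine in antibiotic-treated mice (against 6.43% and 6.62% of all genes tested). For morphine in mice with a normal microbiome 1 was higher and 0 were lower (against 3.91% and 2.67%). For antibiotics under morphine 2 were higher and 2 lower (against 8.42% and 9.58%).

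Of 13 transcription factors of proteasome genes and their processing enzymes, 3 were higher and 1 lower for morphine in antibiotic-treated mice (against 6.43% and 6.62% of all genes tested). For antibiotics under morphine 4 were higher and 1 lower (against 8.42% and 9.58%). Nfe2l1 itself had 420 ± 11.5 CPM in Abx_Morphine, 452 ± 28.3 in Abx_Saline, 445 ± 10.1 in H2O_Morphine and 458 ± 15.3 in H2O_Saline, with no call (lowest adjusted p 0.0984). Ngly1, the glycanase that Nfe2l1 needs for its activation, averaged 27.4 ± 0.487 CPM in Abx_Morphine, 23.7 ± 1.39 in Abx_Saline and 23.0 ± 0.958 in H2O_Morphine, and was higher in Abx_Morphine than in Abx_Saline (0.21) and than in H2O_Morphine (0.25). Nfyb, a subunit of NF-Y, was higher in both by 0.27, while Nfya, another, was lower than in Abx_Saline (-0.32) and than in H2O_Morphine (-0.27). Of the small Maf partners, Maff, at 2.89 ± 1.14 CPM in Abx_Morphine, 1.5 ± 0.507 in Abx_Saline and 1.2 ± 0.422 in H2O_Morphine, was higher in Abx_Morphine by 0.94 than in Abx_Saline and by 1.22 than in H2O_Morphine, and Mafk by 0.52 for antibiotics under morphine. None of the 13 passed for morphine in mice with a normal microbiome.

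The 3 immunoproteasome genes are known to be induced by interferon and strong in immune cells. Psmb8, the inducible counterpart of Psmb5, averaged 2.04 ± 0.560 CPM in Abx_Morphine and 3.39 ± 0.741 in Abx_Saline, a log2 change of -0.72 ± 0.186 (edgeR adjusted p = 0.0138). Microglial markers summed to 419 to 494 CPM in Abx_Morphine and 503 to 620 CPM in Abx_Saline, with 8 of 10 called lower, and their part in the Psmb8 result was not tested. Psmb9 averaged 0.830 ± 0.232 CPM in Abx_Morphine and 1.0 ± 0.185 in Abx_Saline. Psmb10 stood higher, at 25.9 ± 3.27 CPM in Abx_Morphine and 25.3 ± 2.96 in Abx_Saline, and neither passed in any of the comparisons. No gene of the 4 lists passed for antibiotics under saline by edgeR.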

How the data were processed

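Per the labels' protocols, TRIzol RNA was turned into SMARTer cDNA, sonicated and sequenced. The labels name polyA RNA as the molecule and total RNA as the input. The submitters' processing notes name FastQC, STAR 2.4.0 and edgeR. Which tool, build and annotation counted the reads, and whether by strand, is not given in the sources used here. The authors deposited raw read counts per gene (24066 rows). The 5 summary rows, 20.6% to 26.4% of each library, were removed; multiply aligned reads are among these, so genes with near-identical copies rest on unique reads. Total counts per library were 11789713 to 19755139. 

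Counts were tested in R 4.3.3 with edgeR 4.0.16: filterByExpr by group (14564 genes), TMM scaling, 1 model of 4 groups, robust quasi-likelihood F-test, two-sided, Benjamini-Hochberg adjustment over all genes tested. SE is the log2 change divided by the square root of F. Alternatives used limma 3.58.1 and DESeq2 1.42.0. The code was tested on simulated counts. CPM use the counts of the genes tested, and log2 CPM a prior count of 2. Lengths came from GENCODE vM21 by symbol (91.8% of genes tested).

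The 38 genes, the lists and the alternatives were chosen with earlier results of these data known. Values in every library are given for the 4 genes with the smallest p in each comparison of 2 groups and for the 3 catalytic genes, and group means for Psme1 to Psme4. Genes of other lists are named where they pass; some that do are not reported here. Psma6, Psmb2, Psmc1, Psmd10, Psmd11 and Psme2 are also described as called genes. Within groups, 50 pairs of libraries were compared, and their counts differed by 3.17 to 23 times sampling noise (chi-square per gene). The labels give no batch. The deposited normalised table was not used here.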

Additional observations from a re-analysis of the deposited data

Results flagged for a closer look

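A library of its group far from the others was seen in 7 of 68 groups of libraries checked (Dixon's test at 95%). Independent checks would flag about 1 in 20 by chance. These checks share libraries, and most of the genes were picked by their p, so that rate is no yardstick here. Psmc3 had 188 CPM in Abx_Saline 5, the others running between 149.7 and 163, and 177 CPM in H2O_Saline 8, the others between 156 and 161. In Abx_Saline 5, Psme3 had 129 CPM (others 111 to 116) and Psmd12 73.9 CPM (others 66.4 to 69.0). Psmd10 had 15.7 CPM in H2O_Saline 5, below the others (17.7 to 18.7). The mean centred log2 CPM of the 38 genes was 0.0620 in Abx_Morphine 1, against -0.0189 to -0.0164 in the other 4 libraries of the group, and 0.0177 in H2O_Morphine 6, against -0.0541 to -0.0344. No gene's morphine change passed the test for a difference between antibiotic-treated mice and mice with a normal microbiome.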

How the results depend on the processing

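The alternatives were run for the 38 genes, and no call among them changed direction under any. Genes of the other lists were not run through them. For morphine in mice with a normal microbiome (1 gene called), the count was 0 with RLE size factors, with no filter, with a filter of 1 CPM in 5 libraries, with only the groups compared in the fit and with the length slope as covariate, 2 with upper-quartile factors, 3 with DESeq2, 5 with the cortical and septal marker score as covariate and 6 at an adjusted p under 0.1. For morphine in antibiotic-treated mice (4 called) it was 2 with only the groups compared, 0 with the length slope and 1 without Abx_Saline 6 and Abx_Morphine 4. For antibiotics under morphine (10 called) it was 6 with no filter, 6 with only the groups compared and 6 without Abx_Saline 6 and Abx_Morphine 4. The cause of these shifts was not tested. Leaving out 1 library at a time gave 2 to 4 genes for morphine in antibiotic-treated mice, 0 to 2 for morphine in mice with a normal microbiome, 5 to 9 for antibiotics under morphine, 0 for antibiotics under saline and 0 to 1 for the interaction. After group means were removed, same-numbered libraries had a median r of 0.0178 over 25 pairs (-0.478 to 0.353, 8 above 0.1). Libraries of different numbers were not compared in this way, so these values do not settle whether the numbers pair libraries. With the replicate block the counts were 2 for morphine in antibiotic-treated mice, 0 in mice with a normal microbiome and 4 for antibiotics under morphine, and 0 for antibiotics under saline and the interaction. The range of levels per length was 34.3-fold with median transcript lengths. The calls among the 38 genes, with Psme4 in the interaction, kept their side of the threshold in 285 checks, lost it in 98 and crossed it in 1. With 5 or 6 libraries a group the SE of a log2 change was, for example, 0.0444 for Psmd4 and 0.0792 for Psme4 for antibiotics under morphine. A change several times its SE could still miss the threshold, as that of Psmc4 did for morphine in mice with a normal microbiome.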
